A study of Rattus norvegicus with 20 samples.

Results

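mir-219 and mir-338 are the microRNAs (miRNAs) best known from oligodendrocytes, the cells that wrap axons of the central nervous system in myelin. Their rows were taken by name from the lists of rat small RNA sequencing data, as every miRBase precursor named rno-mir-338 or beginning rno-mir-219, with the mature sequences and RefSeq rows of the same miRNAs. The rule gave 4 of 444 precursors (rno-mir-338, rno-mir-219a-1, rno-mir-219a-2 and rno-mir-219b, written below without the rat prefix), 6 of 577 mature sequences and 3 of 388 RefSeq miRNAs. In the RefSeq list the reads of mir-338, mir-219a-1 and mir-219a-2 were identical to those of the precursor list, with a largest difference of 0 reads, so the RefSeq rows are not described again.

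The study asked which tissues might supply the miRNAs found in serum, and profiled untreated male Long Evans Hooded rats at postnatal day 35. Of the 20 libraries, 3 came from whole brain hemispheres run singly, 3 from serum run singly, and 14 from other tissues, each a pool of the miRNA of 3 rats. The 14 pooled tissues were spleen, fat from under the skin of the abdomen, heart, hindlimb muscle, thymus, skin, testes, stomach, pancreas, small intestine, large intestine, liver, lung and kidney. A pool has no replicate, and its single value carries counting error only.

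A miRNA is cut from a hairpin precursor, which can leave a mature sequence from either arm, named 5p and 3p. The seed, bases 2 to 8 of the mature sequence, does most of the pairing with target mRNAs. In the central nervous system miR-219 and miR-338 rise as oligodendrocyte precursors stop dividing, and they repress mRNAs that hold these cells in the precursor state, among them those of the growth factor receptor Pdgfra and the transcription factors Sox6 and Hes5.

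The mature sequences are shown because their seeds differ and because parts of them lie on opposite strands of the same DNA, which bears on how their reads were divided. They are RefSeq's, 5′ to 3′, with the seed in capitals.
miR-338-3p: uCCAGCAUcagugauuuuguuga
miR-338-5p: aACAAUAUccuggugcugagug
miR-219a-5p: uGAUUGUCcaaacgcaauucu
miR-219a-2-3p: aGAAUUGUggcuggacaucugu
miR-219a-1-3p: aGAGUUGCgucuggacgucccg
miR-219b: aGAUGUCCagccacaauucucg
Each of these 6 seeds was shared with 0 others of the 693 rat mature miRNAs in the RefSeq table. The 3p sequences of mir-219a-2 and mir-219a-1 differed at 7 of 22 bases (A4G, U8C, G10U, A17G, U20C, G21C and U22G, counted from the 5′ end with the base of miR-219a-2-3p first), of which U8C and A4G lie in the seed.

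The hairpins are shown to place the arms, with the mature sequences in capitals. Coordinates are those of RefSeq on GRCr8. The authors aligned to Rn5, and their lists hold no coordinates.
Mir338, chr10:105796342-105796407, minus strand: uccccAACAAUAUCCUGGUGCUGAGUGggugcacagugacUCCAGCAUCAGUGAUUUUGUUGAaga
Mir219-2, chr3:33516504-33516599, minus strand: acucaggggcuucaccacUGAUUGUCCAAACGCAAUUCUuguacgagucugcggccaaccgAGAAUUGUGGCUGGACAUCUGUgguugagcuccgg
Mir219a1, chr20:4831580-4831689, plus strand: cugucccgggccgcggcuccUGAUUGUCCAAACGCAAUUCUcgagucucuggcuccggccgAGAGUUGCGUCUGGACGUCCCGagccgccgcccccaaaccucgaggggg
Mir338 lies inside the gene Aatk, which encodes an apoptosis-associated tyrosine kinase. Mir219-2, the RefSeq name of mir-219a-2, lies inside Cercam. Mir219a1, the RefSeq name of mir-219a-1, lies between Hsd17b8 and Ring1 and inside no annotated gene. The sequence of miR-219a-5p stands in both the Mir219-2 and the Mir219a1 hairpin, so reads of this arm cannot be told apart by locus. Bases of miR-219a-2-3p and miR-219b pair in an unbroken run of 20, since they come from opposite strands of 1 locus. miR-338-5p likewise overlaps miR-3065-3p, from the antisense hairpin mir-3065, over 19 bases, and miR-338-3p overlaps miR-3065-5p of that hairpin over 20.

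Levels are given in RPM, a feature's reads scaled to a fixed large total of the reads counted on the same list. Precursor reads numbered 388275 to 1204552 in the brain libraries, 162080 to 3685761 in the pools and 7556 to 10862 in serum. The lowest level shown, taken as 3 reads, was therefore far higher in serum (276 to 397 RPM) than in brain (2.49 to 7.73 RPM). Confidence intervals of levels are Wilson intervals at 95%, and like the floors they cover counting error only. The same holds for the intervals of read ratios and shares below, which leave out the spread between tissues and between rats. The libraries held RNA of whole tissue, so fewer cells of a type and less of a miRNA per cell cannot be told apart. The library labelled pancreas held the hepatocyte miRNA mir-122 at 14862 RPM, more than any other pool, that labelled liver included. Levels of both are given under their labels. The test of mir-219a-1, for which pancreas is the highest pool, is also given without pancreas.

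mir-338 was present in every tissue and highest in brain. Its precursor stood at 4141, 3894 and 2416 RPM in the 3 hemispheres, from 4988, 2222 and 938 reads, a mean of 3484 ± 933 RPM (SD, n = 3). In the 14 pools it lay between 21.3 RPM in kidney and 187 RPM in spleen, with a median of 102 RPM. Every hemisphere thus stood above every pool, as was the case for 36.3% of the 295 precursors tested. The brain mean was 18.6 times the level of spleen and 34.1 times the pool median. These ratios depend on the scaling, and were 9.95 to the highest pool and 20.1 to the median with TMM, and 5.47 and 11.0 with DESeq2 size factors. From pooled reads, which weight the deepest hemisphere most, the ratio of brain to spleen was 20.1 (95% interval 14.7 to 28.1). This interval covers counting error only, and the ratios to the highest pool with TMM and DESeq2 size factors lie below it.

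The pools formed a graded series without a clear step. After spleen came fat at 157 RPM, heart at 146, muscle at 135, thymus at 131, skin at 117 and testes at 111 RPM. Stomach held 93.2 RPM, pancreas 59.5, small intestine 55.5, large intestine 45.9, liver 30.5 and lung 28.4 RPM, with kidney last. The intervals of all 13 pairs of neighbours in this order overlapped, and those of 6 other pools overlapped the interval of spleen (138 to 255 RPM, 40 reads). Each of the 14 pools held at least 10 reads of mir-338, 935 reads together. With TMM or DESeq2 scaling, thymus took the highest place among the pools and lung the lowest, and 0 pools reached the lowest hemisphere under any of these scalings.

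mir-219a-2 was found almost entirely in brain. Its reads are given together with those of mir-219b, the antisense hairpin of the same locus, because the lists divided the locus between the names in a fixed proportion, described below. The locus stood at 2005, 1973 and 2202 RPM in the hemispheres (2415, 1126 and 855 reads), a mean of 2060 ± 124 RPM (SD, n = 3). The 14 pools together held 12 reads of 12593570. Thymus had 3 of them, kidney, lung and stomach 2 each, and large intestine, muscle and skin 1 each, and the other 7 pools had none. The highest pool, thymus, stood at 4.55 RPM (1.55 to 13.4). The ratio of brain to all pools was 2132 by pooled reads (95% interval 1220 to 4130), and the ratio to thymus was 446 (153 to 2164). No hemisphere overlapped any pool.

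mir-219a-1, the other hairpin that carries the miR-219a-5p sequence, was scarce everywhere. It stood at 24.9, 19.3 and 18.0 RPM in the hemispheres, from 30, 11 and 7 reads, a mean of 20.7 ± 3.66 RPM (SD, n = 3). Among the pools it lay between 0 reads in testes and 19.8 RPM in pancreas (4 reads, interval 7.71 to 51.0), with a median of 2.80 RPM. Spleen at 14.1, skin at 10.6, liver at 9.15 and muscle at 8.73 RPM followed pancreas. The groups overlapped, since pancreas exceeded the lowest hemisphere, and with TMM and DESeq2 scaling 4 and 6 pools did. By pooled reads brain stood 5.48 times above the pools (95% interval 3.62 to 8.29). This interval covers counting error only, and the test below, which includes the spread between tissues, did not call mir-219a-1.

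**Figure D1:**
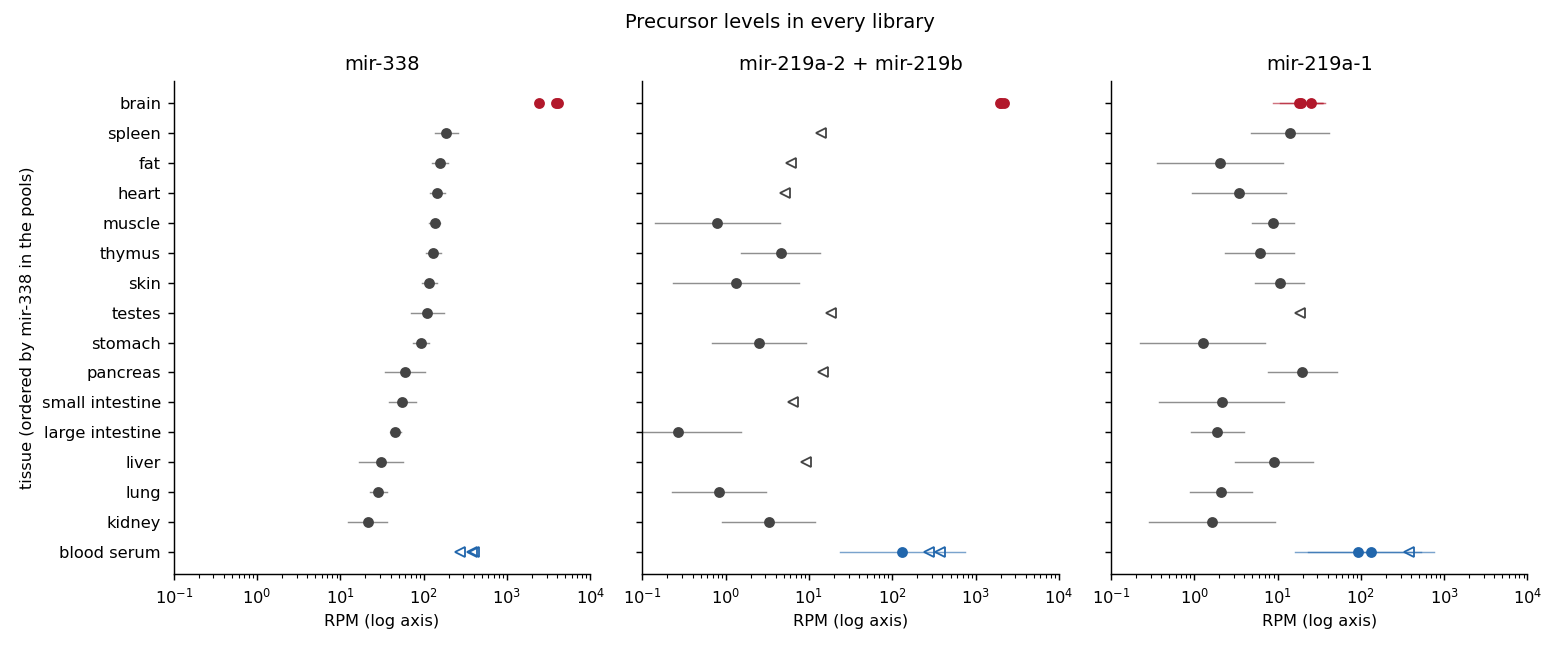
Levels of the precursors in RPM (log axis) by tissue, with 1 point for each library and lines for 95% Wilson intervals, and open triangles at the 3-read level where a library had no read. mir-338 lies between 21.3 and 187 RPM in the pools and at 2416 RPM or more in brain, the mir-219a-2 locus at or under 4.55 RPM in the pools and at 1973 RPM or more in brain, and mir-219a-1 overlaps between brain and pools.

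Relative to brain, mir-338 and mir-219a-2 therefore differed by more than an order of magnitude in their highest pools, and by less in kidney. In the pools mir-338 stood at 0.610% to 5.38% of its brain level, with a median of 2.93%, whereas the mir-219a-2 locus stood at or under 0.221%. Of the RPM summed over the 15 tissues, brain held 99.3% for mir-219a-2, 72.5% for mir-338 and 20.0% for mir-219a-1. Ranked by this share among the 295 tested precursors, mir-219a-2 came 7th, mir-338 42nd and mir-219a-1 122nd. The median share over these precursors was 14.1%, and 20.7% of them had at least 50% of their RPM in brain. Within brain, mir-338 ranked 43rd, 45th and 54th of the 444 precursors by level in the hemispheres, mir-219a-2 63rd, 66th and 58th, and mir-219a-1 236th, 254th and 244th.

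**Figure D2:**
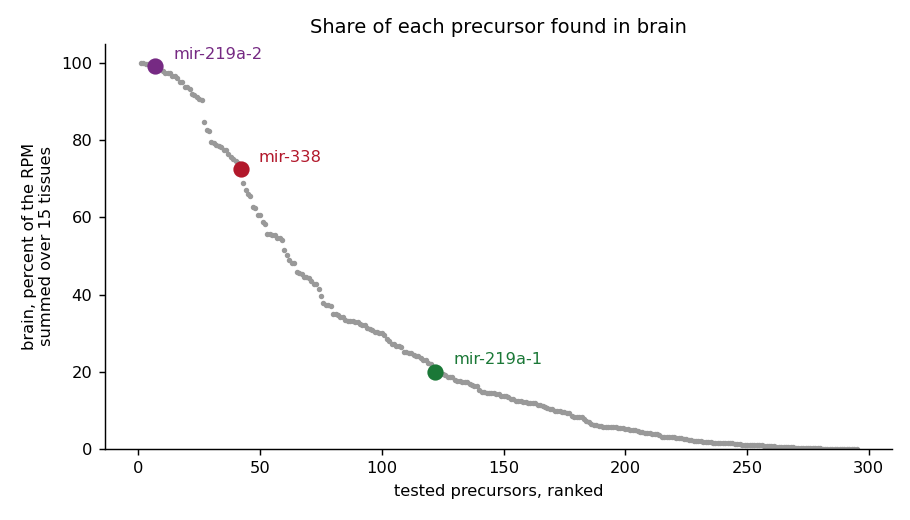
Share of each precursor's RPM, summed over 15 tissues with brain as the mean of 3 hemispheres, that fell in brain, in percent, for the 295 tested precursors ranked by that share. The marked precursors are mir-219a-2 at 99.3%, mir-338 at 72.5% and mir-219a-1 at 20.0%.

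edgeR's quasi-likelihood test set the 3 hemispheres against the 14 pools, and took its error mainly from how the tissues differed among themselves. Since the hemispheres are 1 tissue counted as 3 libraries, p-values can be too small. In this fit 71 of the 295 precursors, 24.1%, were called higher in brain and 18.6% lower. mir-338 was higher by 4.15 ± 0.45 on the log2 scale (SE, Benjamini-Hochberg adjusted p = 1.00e-06 by edgeR). mir-219a-2 was higher by 9.38 ± 0.76 (adjusted p = 2.11e-08). Summed with mir-219b, its locus was higher by 9.56 (adjusted p = 1.50e-08). mir-219b alone rounded to 0 reads in every pool, so its fitted change is no measure of size. Both mir-219a-2 and mir-219b passed the minimum of 10 counts in 3 libraries through brain alone, and had to differ.

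For mir-219a-1 the log2 change was 0.84 ± 0.68, which did not pass (edgeR, adjusted p = 0.293). It depended on the scaling, with 1.87 and adjusted p = 0.0378 when totals were used without TMM, and 0.23 and adjusted p = 0.758 with DESeq2. Without the pancreas pool it was 1.10 (adjusted p = 0.138). Precursor by precursor, brain minus tissue median was lower with TMM than with totals by a median of 0.91 over the 295, on the log2 scale. With DESeq2 size factors it was lower than with totals by a median of 1.67. mir-338 kept its direction and call under each of these scalings. So did mir-219a-2, but it entered the test through brain alone and had to differ.

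**Figure D3:**
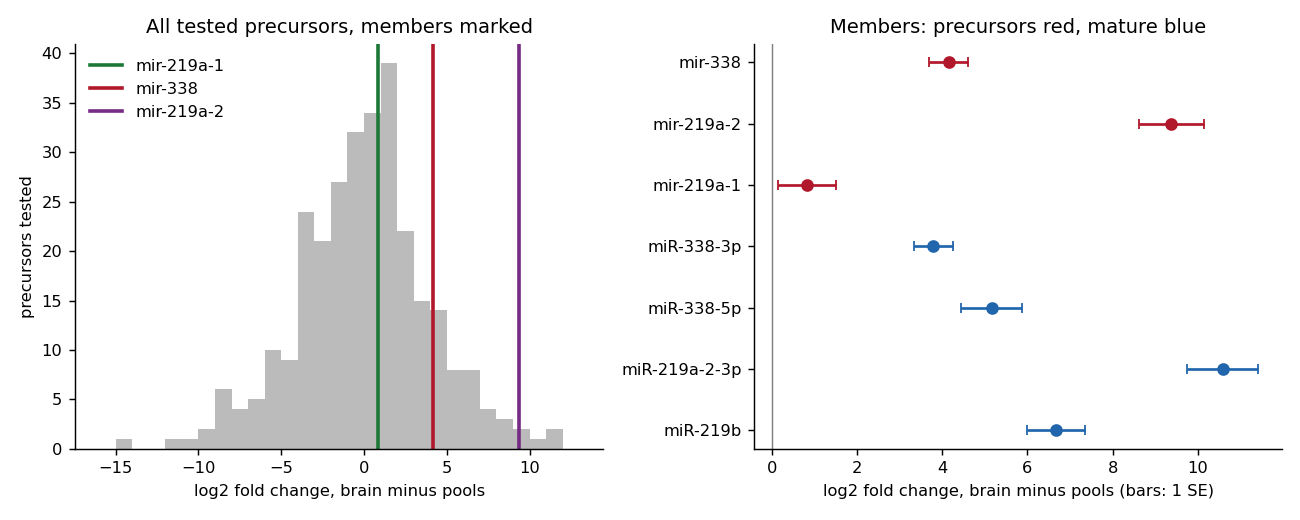
Left, log2 fold changes of brain against the 14 pools for the 295 tested precursors (number per bin of 1), with lines at mir-219a-1, mir-338 and mir-219a-2. Right, log2 fold changes of precursors (red) and mature sequences (blue) with bars of 1 SE, where mir-219a-1 stands at 0.84 ± 0.68 and the others at 3.80 or more; mir-219b is not drawn.

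The division of reads between mir-219a-2 and mir-219b was the same in every library. In the 11 libraries with reads at the locus, mir-219b received between 11.9174% and 11.9185% of them, whether the library held 2415 reads or 1 read, and the other 9 libraries held none. The sums of both names lay within 0.043 reads of a whole number. Whether the counting used strand is not given in the sources used here. The levels listed for mir-219b (246 ± 14.8 RPM in brain) and mir-219a-2 (1815 ± 109 RPM) therefore cannot be told apart as separate measurements. mir-3065, which lies over mir-338 on the other strand, received at most 1.69e-06 reads in any library, so the locus was listed as mir-338 whole.

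**Figure D4:**
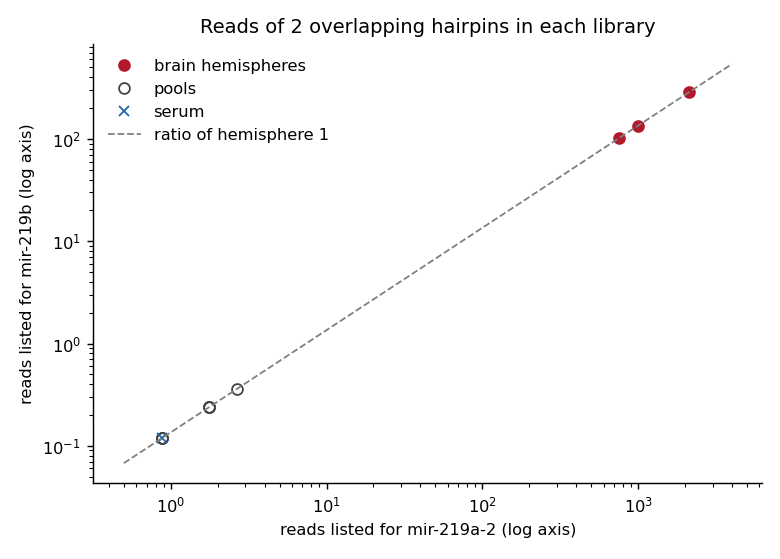
Reads listed for mir-219b against those listed for mir-219a-2 in the 11 libraries with reads at the locus (both axes log). All points, from 1 read in serum and in some pools to the 2415 reads of hemisphere 1, lie on the line of a constant ratio.

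The mature lists divided the same reads differently. miR-219b took 5.81%, 5.10% and 10.4% of the reads of miR-219a-2-3p and miR-219b together in the hemispheres, a mean of 7.09% ± 2.86 (SD, n = 3). miR-3065-3p took 17.3%, 18.5% and 14.5% of those of miR-338-5p and miR-3065-3p (16.8% ± 2.04). Values of miR-219b, miR-338-5p and miR-3065-3p are uncertain to the extent that these reads could belong to either strand. The same limit holds for miR-338-3p where it overlaps miR-3065-5p, a pair whose division was not examined.

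Of the mature sequences in brain, miR-338-3p was the most abundant, at 4429, 4075 and 2483 RPM on the mature list (3662 ± 1037, SD, n = 3). miR-219a-2-3p followed at 1589, 1589 and 1653 RPM (1610 ± 36.9). Both are 3p arms, and miR-338-3p was the higher in each hemisphere. miR-338-5p stood at 344, 378 and 287 RPM, and miR-219b at 98.0, 85.3 and 191 RPM. miR-219a-5p, whose seed is the one usually meant by miR-219, was listed at 39.2, 49.4 and 12.2 RPM, from 40, 24 and 4 reads. miR-219a-1-3p had 2, 0 and 1 reads.

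Both hairpins were thus read mainly from the 3p arm. The 5p share of mir-338 was 7.20%, 8.48% and 10.4% in the hemispheres (8.68% ± 1.59, SD, n = 3). Over all pools it was 3.65% of 905 reads (exact binomial 95% interval 2.52 to 5.08), and single pools ran from 0% to 8.33%, so the pools and hemispheres overlapped. With miR-3065-3p added to the 5p arm the shares were 10.2% ± 1.67 in brain and 6.03% in the pools (4.59 to 7.77). The 5p share of mir-219a-2 in brain was 2.05% ± 1.18, counting every miR-219a-5p read as its own. This share leaves out the hairpin reads without a listed mature counterpart, given below, and so is no upper limit. How reads that match more than 1 locus were placed is not given in the sources used here.

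The mature list also held less of the mir-219 hairpins than of mir-338. Of the precursor reads of mir-338, 99.0%, 99.1% and 98.4% had a counterpart on miR-338-3p, miR-338-5p or miR-3065-3p in the hemispheres. For the 3 mir-219 hairpins together the figures were 72.1%, 73.6% and 70.6%. For these hairpins 683, 300 and 253 reads counted on the precursors had no counterpart on a listed mature sequence. In the pools with reads the share ran from 0%, as in muscle (0 of 12 reads), to 66.7% in kidney and stomach (2 of 3 reads each). In pancreas, the highest pool for mir-219a-1, 0 of 4 reads had a counterpart. The pool levels of mir-219a-1 thus rest in part on reads outside the listed mature sequences.

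Against the pools, edgeR called 20% of 290 tested mature sequences higher in brain. miR-338-3p, which had at least 10 reads in all 14 pools, was higher by 3.80 ± 0.45 on the log2 scale (SE, adjusted p = 2.76e-06). Its levels in the pools ran from 31.7 RPM in kidney to 243 RPM in spleen, with a median of 127 RPM. miR-338-5p was higher by 5.16 ± 0.72 (edgeR, adjusted p = 1.29e-05), with a pool median of 2.29 RPM and 5 pools without a read. miR-219a-2-3p was higher by 10.58 ± 0.84 (edgeR, adjusted p = 1.79e-08), with 2.5 reads in all pools, and miR-219b by 6.67 ± 0.67 (edgeR, adjusted p = 3.90e-07), with 3.5 reads in all pools. These last 3 passed the count minimum only through brain. miR-219a-5p, at 0 reads in every pool, and miR-219a-1-3p did not reach it and were not tested, so 4 of 6 were.

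The hemispheres did not vary alike for the 2 miRNAs. The third hemisphere held 1.10 reads of mir-338 for each read of the mir-219a-2 locus (95% interval 0.999 to 1.21), against 2.07 (1.97 to 2.17) in the first and 1.97 (1.84 to 2.12) in the second. The intervals of the first and second overlapped, and that of the third stood apart from both. This ratio does not depend on the library total. mir-338 in the third hemisphere lay 0.73 below the mean of the other hemispheres on the log2 scale, and 12 of the 233 precursors compared (5.15%) lay as low or lower. The mir-219a-2 locus was at its highest there, at 2202 RPM. The third library was the shallowest of the brain libraries, and with 1 library for each hemisphere the difference was not tested against repeated sequencing of 1 sample.

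**Figure D5:**
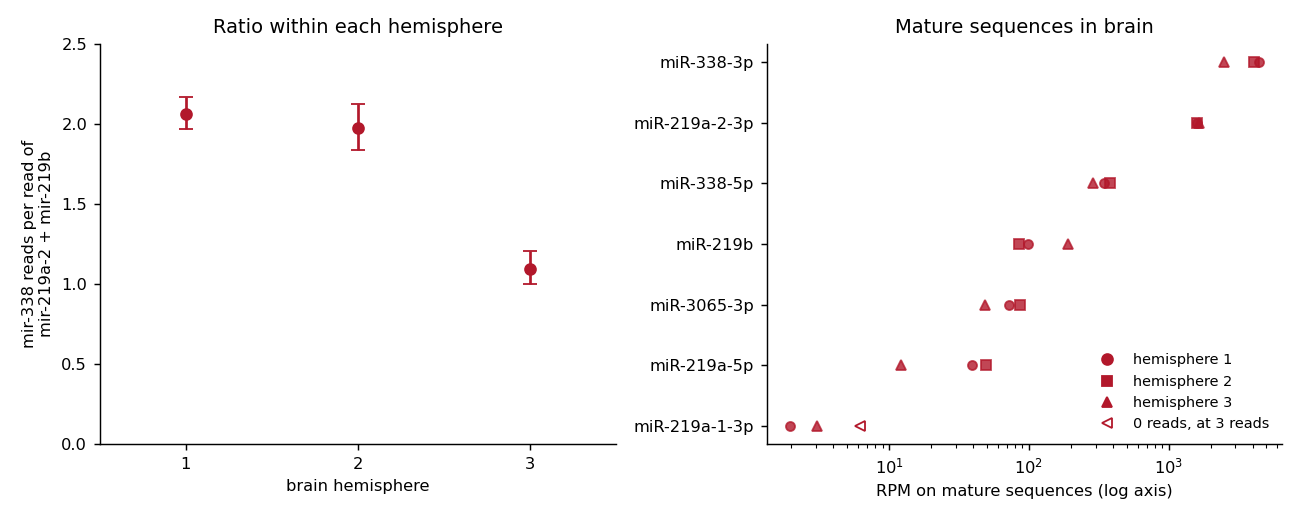
Left, reads of mir-338 per read of the mir-219a-2 locus in each brain hemisphere with 95% intervals, at 2.07, 1.97 and 1.10. Right, RPM of the mature sequences in the hemispheres (log axis, symbols by hemisphere), where miR-219a-2-3p is nearly the same in all 3 and miR-338-3p is lowest in hemisphere 3.

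Serum gave few reads of either miRNA at its low depth. mir-338 had 0 reads of 26348 in the 3 serum libraries, which by the floor of 3 reads allows a level of up to 114 RPM over the group. On that floor serum was at least 30.6-fold lower than the brain mean and at least 21.2-fold lower than the lowest hemisphere. The Wilson interval of 0 reads reaches 146 RPM. At the brain level 91.8 reads would have been counted. At the pool median the number was 2.69, under the floor of 3 reads, so by this floor a level like the pool median was not excluded. Both limits, 114 and 146 RPM, lie within the range of the pools, 21.3 RPM in kidney to 187 RPM in spleen. The mir-219a-2 locus had 1 read, in serum replicate 1, where 54.3 would have been counted at the brain level. That read puts the locus at 38.0 RPM over the serum group (6.70 to 215), above thymus, the highest pool, at 4.55 RPM. With 1 read, serum cannot be placed against the pools. For the locus the ratio of brain to serum was 53.5 by pooled reads, with an interval of 9.60 to 2115. mir-219a-1 had 2 reads, 1 each in replicates 1 and 2, and a ratio of 0.292 (0.0766 to 2.48), an interval that includes equality. Of the mature sequences, miR-219a-2-3p had 1 read of 17336 and the other 5 had none. By the floor of 3 reads this allows up to 173 RPM, and the Wilson interval reaches 222 RPM. At the brain level 63.5 reads of miR-338-3p and 5.83 of miR-338-5p would have been counted. For miR-219b (2.16), miR-219a-5p (0.583) and miR-219a-1-3p (0.029) the number was under the floor, so their 0 reads show no difference from brain.

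edgeR on the 6 brain and serum libraries called 44.7% of 235 precursors higher in brain, so a call in this direction was common. mir-219a-2 was higher by 5.45 ± 0.71 on the log2 scale (SE, edgeR, adjusted p = 3.07e-05), a size that rests on the single read of serum replicate 1. Without that library it was fitted at 12.66. mir-338 and mir-219b also passed (edgeR, adjusted p = 4.84e-06 and 0.0172), but at 0 or less than 1 listed read in serum their fitted changes are no measure of size. Among mature sequences 52.8% of 212 were called higher, among them miR-338-3p (edgeR, adjusted p = 1.35e-09), miR-338-5p (0.000316) and miR-219a-2-3p (5.81e-07). miR-219b did not pass (edgeR, adjusted p = 0.0566), and 8 of 10 alternatives gave the same. It passed with no count filter (0.00663) and without brain replicate 2 (0.0292). Its 0 serum reads cannot show a difference, since 2.16 would have been counted at the brain level, under the floor of 3. All of these members were tested only because their counts in brain met the minimum. mir-219a-1, miR-219a-5p and miR-219a-1-3p were not tested.

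The profile of mir-338 over tissues was nearest to those of mir-138-1 (Pearson's r = 0.883 of log2 of RPM plus 1 over 15 tissues), mir-212 (0.873), mir-138-2 (0.838), mir-124-1 (0.828) and mir-3543-1 (0.824), among 294 precursors searched. That of mir-219a-2 was nearest to mir-219b (0.981), its own locus, and then to mir-124-1 (0.969), mir-124-2 (0.960), mir-3543-1 (0.957) and mir-124-3 (0.955). mir-124 and mir-9 are the miRNAs best known from neurons. The 5 nearest mir-219a-1 reached at most 0.717, for mir-33. mir-219b gave mir-3543-1, the mir-124 precursors and mir-764, all at 0.991 to 0.995. The points share library depth and, for brain, a single high value. mir-219a-2 and mir-338 correlated at r = 0.767 over the 15 tissues and at -0.13 over the 14 pools alone.

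Of 15 other precursors with a described part in the oligodendrocyte lineage, 14 were tested against the pools. edgeR called 4 higher in brain, where 24.1% of all tested precursors were, 7 lower, where 18.6% were, and 3 neither. The median log2 change was -2.50, against 0.17 for all tested precursors. The 4 were mir-138-2 (6.94), mir-212 (6.36), mir-138-1 (5.06) and mir-7a-1 (1.50). Of these, 3 had fewer than 3 pools with 10 counts and entered the test through brain, which left mir-138-1 as the 1 called higher among the 10 that did not. The 7 were mir-27a (-2.34) and 6 precursors of the mir-17-92 clusters, which are known for promoting cell division, from mir-17-1 (-2.69) to mir-19a (-4.67). With totals in place of TMM the counts were 5 higher and 4 lower, and with DESeq2 3 higher and 9 lower. mir-7a-1 lost its call with DESeq2 (adjusted p = 0.282). Against serum 9 of the 15 were tested, and edgeR called 2 higher, where 44.7% of all tested precursors were, and 4 lower, where 18.7% were. Both that were higher entered through brain.

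The lists for other cell types give the setting of the brain libraries. All 12 neuronal precursors (mir-124, mir-9a, mir-128, mir-129, mir-137 and mir-153 copies) were called higher in brain than in the pools by edgeR, where 24.1% of all tested precursors were. Of these, 7 had fewer than 3 pools with 10 counts, entered through brain and had to differ, and the other 5 were the copies of mir-9a and mir-128. Against serum 10 of 12 were called higher, where 44.7% of all were, and all 12 entered through brain. Their summed level was 58092 ± 6274 RPM in brain (SD, n = 3). In the pools it was 0.0853% to 9.32% of that, with a median of 0.329%, below the median of 2.93% for mir-338. Its highest pool was thymus, where mir-128-1 alone stood at 3547 RPM. Against the pools, where 18.6% of all tested precursors were called lower in brain, edgeR called lower 2 of 3 leukocyte precursors (mir-142 and mir-223), the 1 tested precursor of the endothelial list (mir-126a) and both smooth muscle precursors (mir-143 and mir-145). It made no call for the 2 erythroid precursors (mir-451 and mir-144), the 1 of the hepatocyte list (mir-122, at 0 reads in brain) and the 1 tested member of the striated muscle list (mir-133b). With totals in place of TMM mir-126a was not called (log2 change -1.24). DESeq2 called lower all 3 leukocyte precursors, both erythroid precursors, mir-122 and mir-133b. The part of these cell types in the levels of mir-338 outside brain was not tested.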

How the data were processed

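Small RNA libraries of rat brain, serum and 14 pooled tissues were analysed. The authors used a TruSeq Small RNA kit and MiSeq sequencing, trimmed low-quality bases, aligned to Rn5 (Bowtie) and counted on miRBase and RefSeq features. The submitters' notes name Partek, and the lists name miRBase 21. Tool versions are not given in the sources used here. The deposited files hold the authors' estimated counts per feature, without normalization.

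RPM was computed within each list, with brain as the mean of 3 libraries. Counts were rounded to whole numbers for edgeR 4.0.16 (R 4.3.3; quasi-likelihood test, TMM, a minimum of 10 counts in 3 of the libraries compared, Benjamini-Hochberg threshold 0.05). A standard error is the fitted log2 change over the square root of its F statistic. DESeq2 1.42.0 was an alternative, beside other scalings, pseudocounts, filters, each library left out, and a replicate block. Summing overlapping features was chosen after seeing the data. The procedure was tested on simulated data that gave brain and the other libraries the same spread. The case of 1 tissue entered as 3 libraries against unlike tissues was therefore not simulated. Levels and intervals came from SciPy 1.17.1, NumPy 2.4.6 and pandas 2.3.3 under Python 3.11.15, and figures from Matplotlib 3.10.9. Precursor totals were 162080 to 3685761 in tissues and 7556 to 10862 in serum.

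The members, the oligodendrocyte lineage list and the cell type lists were chosen with earlier results of these data known. Named were all members, the 5 precursors most like each by Pearson's r, and list members, by counts or where they differed. Brain and serum share replicate numbers and, by the study's methods, came from the same 3 rats. Same-numbered libraries correlated in their deviations from the group means at r = 0.10, -0.11 and -0.08 over 75 precursors. Nothing states separate extractions, so p-values measure only the spread between these libraries.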

Additional observations from a re-analysis of the deposited data

How the results depend on the processing

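mir-338 and miR-338-3p, which had at least 10 reads in all 14 pools, kept their direction and call against the pools under every alternative run. The calls of mir-219a-2, miR-338-5p and miR-219a-2-3p did not change either, but these entered the tests through brain and had to differ, so this says nothing of stability. mir-219b is a fixed share of the mir-219a-2 locus and no separate evidence. The brain level above the tissue median (log2 of RPM plus 1) was 2.27 for mir-219a-1, 10.52 for mir-219a-2, 7.90 for mir-219b and 4.92 for mir-338. A pseudocount of 0.1 RPM gave 2.53, 12.38 and 10.86 for the first 3, and one of 10 RPM gave 1.18, 7.48 and 4.67. In the same order, all 4 were 1.25, 9.56, 7.18 and 4.16 with TMM and 0.48, 8.69, 6.44 and 3.32 with DESeq2 size factors. Of the 5 nearest profiles, mir-219a-1 kept 3 with 10 RPM and 3 with TMM, and mir-338 kept 2 and 3.

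Over all features against the pools, 71 precursors were higher and 55 lower. Totals without TMM gave 123 and 24 (83.7% of calls higher), and DESeq2 gave 119 lower (36.4% higher). Leaving out libraries gave 46 to 85 higher and 14 to 60 lower, the lowest without brain replicate 1, with 16 and 15 lower without replicates 2 and 3. Of mature sequences 58 were higher and 70 lower. Totals gave 28 lower (75.7% higher), no filter gave 94 higher, and leaving out libraries gave 48 to 85 higher and 21 to 74 lower, with 23, 21 and 23 without each brain library. The cause was not tested.

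With the replicate block, mir-338 stood at 13.34 (edgeR adjusted p = 1.75e-07), mir-219a-2 at 5.46 (6.20e-06) and mir-219b at 9.58 (0.0248), with 97 precursors higher and 44 lower. The block changed no member's call. Depth limits serum most, where 1 read decides the size for mir-219a-2, and mir-219a-1 rests on 48 reads in brain.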
